A study of Mus musculus with 2 samples.

Results

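The antioxidant and glutathione enzymes described here are 37 genes that encode peroxiredoxins, glutathione peroxidases, catalase, superoxide dismutases, the thioredoxin system, glutathione synthesis and recycling, glutaredoxins, glutathione transferases, glyoxalases and repair reductases. They were chosen by gene symbol, and all 37 were found among the 43346 Ensembl genes of the deposited gene tables, of which 21461 were nuclear protein-coding genes. The RNA came from mouse erythroblasts, which still have a nucleus and mature into red blood cells, and was sequenced after removal of ribosomal RNA. The labels describe primary cells from male mice of the strain C57BL/6J, 5 to 6 weeks old, name no engineered allele and no treatment, and cite a protocol for isolating cells from bone marrow. The 2 biological replicates form 1 group under 1 donor record, so there is no contrast of conditions, and the spread between the libraries may be partly technical. The questions are which of these enzymes the cells express, in what order, and how closely the libraries match.

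Red cell precursors load themselves with hemoglobin, and the oxidation of its heme iron gives off superoxide. Superoxide dismutases turn superoxide into hydrogen peroxide, which catalase, glutathione peroxidases and peroxiredoxins remove. The last of these are recharged by glutathione or thioredoxin, both of which draw their electrons from NADPH. Peroxiredoxin 2, catalase, glutathione peroxidase 1 and superoxide dismutase 1 are known as the main such enzymes of the mature red cell.

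The libraries held 37312621 and 22464713 expected counts in replicates 1 and 2. Their recorded size ranges also differed, 200 to 764 in replicate 1 and 138 to 1000 in replicate 2. The part of this in the effective lengths and transcript shares below was not tested. Levels are given as coding-scaled TPM, in which the per-length levels (TPM) of all nuclear genes that code for protein are rescaled to sum to 1000000 in each library. Those genes held 11.3% and 6.89% of deposited TPM. All 12 erythroid markers were detected, with sums of 404898 and 347119 coding-scaled TPM. Most of these sums came from globin genes, Hba-a2 alone with 283079 and 235843. Outside the globins the highest erythroid marker was Slc4a1 (6811 and 7957), near the neutrophil marker S100a8 (8719 and 7420). All 14 neutrophil and granulocyte markers were also detected (sums of 20996 and 20450), as were all 12 monocyte and macrophage markers (3041 and 2376) and all 6 markers of mast cells, basophils and eosinophils (840 and 716). Megakaryocyte and platelet markers were detected for 4 of 7 (sums of 122 and 144), B cell markers for 2 of 5 (46.9 and 43.7) and T and NK cell markers for 2 of 5 (32.4 and 20.0), with Trac at 0 counts in both libraries. The part of these other cells in the levels below was not tested, and in such bulk RNA fewer cells of a type and less RNA per cell cannot be told apart.

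Of the 37 genes 34 were detected, that is, had a coding-scaled TPM of at least 1 in both libraries, against 43.9% of all nuclear protein-coding genes. The median level over the 37 was 66.0 (replicate 1) and 49.3 (replicate 2). The 12895 coding genes with some TPM in either library had medians of 7.02 and 6.96. The median percentile rank among those genes was 88.1. The 37 genes together held 1.12% and 1.07% of coding TPM. That sum was uneven: Gpx1 alone held 48.8% and 44.5% of it, and Gpx1 with Prdx2 held 69.7% and 66.1%. With Txnrd2, Gclm and Cat the 5 highest genes held 80.3% and 81.1%. There were 12 genes at 100 or more in both libraries, for which the share over all coding genes is not given. Gpx3 was below the detection limit in replicate 2, and Gpx7 and Sod3 had 0 counts in both libraries, which allows up to 0.0804 and 0.134 CPM (counts scaled to 1000000 per library).

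**Figure D1:**
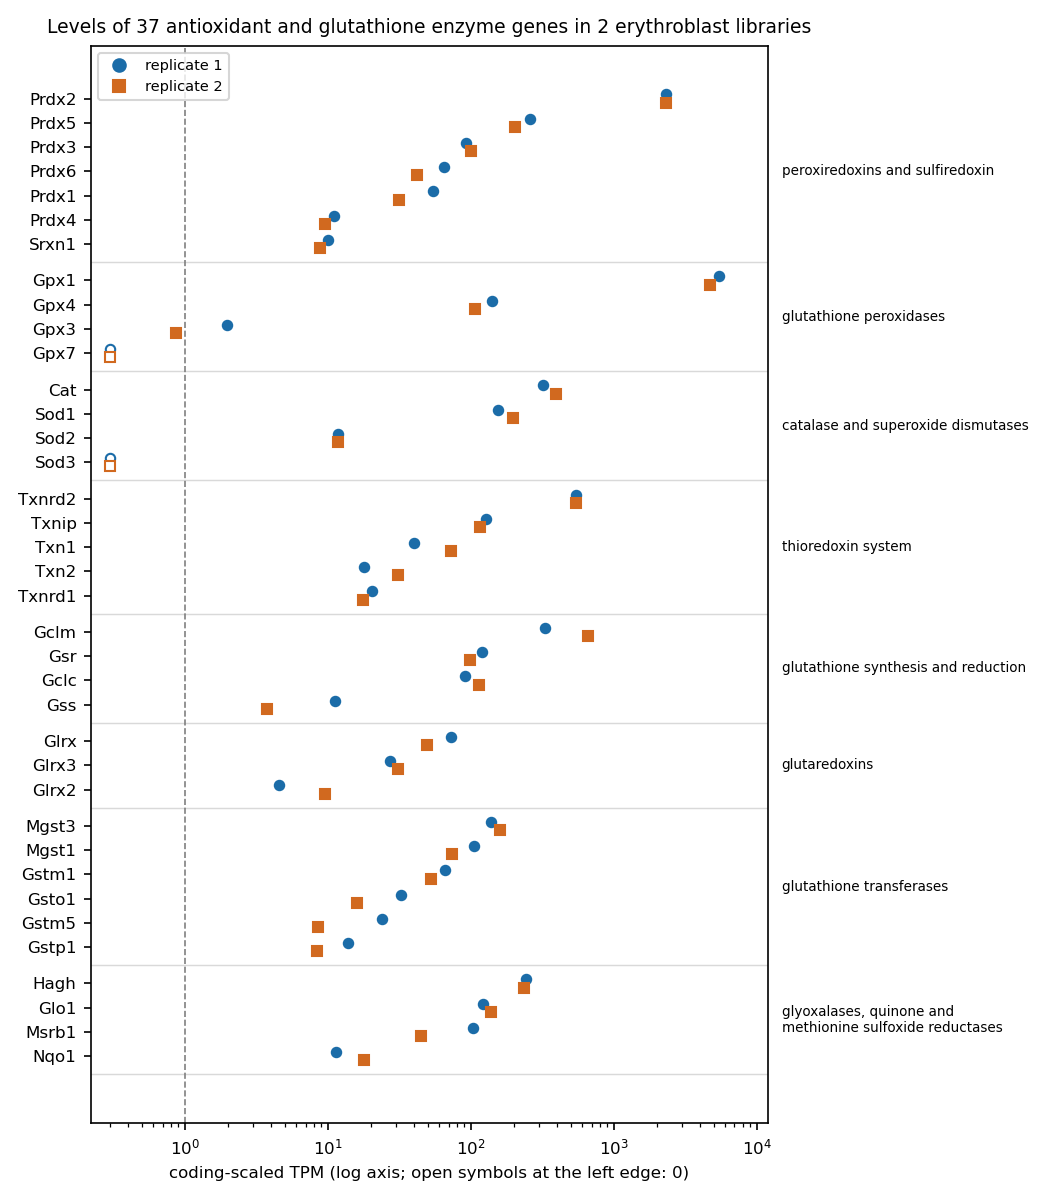
Coding-scaled TPM (log axis) of the 37 genes in replicate 1 (circles) and replicate 2 (squares), grouped by role, with the detection limit of 1 as a dashed line and open symbols at the left edge for a value of 0. Gpx1 and Prdx2 stand furthest to the right in both libraries, and Gpx7 and Sod3 stand at 0.

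Among the peroxiredoxins, thiol enzymes that reduce peroxides, Prdx2 was far above the rest. Prdx2 (chr8:84969587-84974834), a cytosolic form, reached 2337 in replicate 1 and 2309 in replicate 2, in coding-scaled TPM, from 30894 and 14968 counts. Prdx5, which is found in mitochondria, peroxisomes and cytosol, stood at 259 and 206. The mitochondrial form Prdx3 stood at 93.3 and 101. The order of these 3 was the same in both libraries by TPM. By counts Prdx5 and Prdx3 changed places, with 1943 and 1827 in replicate 1 and 1003 and 1039 in replicate 2. Prdx1, the other main cytosolic form, had 54.8 and 31.6, so that the ratio of Prdx2 to Prdx1 by TPM was 42.6 and 73.0. By counts, which do not correct for length, that ratio was 23.5 and 28.5, so Prdx2 exceeded Prdx1 on either scale. Prdx6, which also acts on phospholipid peroxides, stood at 65.3 and 41.9, and Prdx4 of the secretory pathway at 11.1 and 9.57. Srxn1, which repairs overoxidised peroxiredoxins, had 9.95 and 8.85.

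The glutathione peroxidases split into an abundant pair and a pair at or near 0. Gpx1 (chr9:108338903-108340343), the cytosolic enzyme that reduces hydrogen peroxide with glutathione, was the highest of the 37 genes, with 5450 and 4758 coding-scaled TPM from 59875 and 25677 counts. Gpx4, which reduces lipid peroxides inside membranes, stood at 140 and 107. The ratio of Gpx1 to Gpx4 was 38.8 and 44.5 by TPM, and 42.5 and 42.9 by counts. Gpx3, the secreted plasma form, had only 41 and 10 counts, or 1.95 and 0.870 coding-scaled TPM. Gpx7, of the secretory pathway, had none.

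Among the 37 genes, 6 encode selenoproteins: Gpx1, Gpx3, Gpx4, Msrb1, Txnrd1 and Txnrd2. A selenoprotein carries selenocysteine, which is written in the mRNA by TGA, otherwise a stop codon, and sits in the active site of these enzymes. The stretches around that codon are shown because several results below turn on which transcripts hold it. They were read from the GENCODE M21 transcripts (GRCm38), 5′ to 3′, and the capitals mark the TGA.
Gpx1: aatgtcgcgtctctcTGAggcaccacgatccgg
Gpx3: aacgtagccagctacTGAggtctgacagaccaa
Gpx4: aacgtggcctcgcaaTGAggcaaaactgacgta
Msrb1: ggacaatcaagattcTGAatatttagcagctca
Txnrd1: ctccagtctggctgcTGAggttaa
Txnrd2: actgtgactggttgcTGAggctaa

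The TGA was codon 47 of 201 in Gpx1 (chr9:108339451-108339453, plus strand), codon 73 of 226 in Gpx3 (chr11:54907256-54907258, plus) and codon 73 of 197 in the long form of Gpx4 (chr10:80054737-80054739, plus). It was codon 95 of 116 in Msrb1 (chr17:24740158-24740160, plus). In both thioredoxin reductases it was the codon before the last, 498 of 499 in Txnrd1 (chr10:82896037-82896039, plus) and 526 of 527 in Txnrd2 (chr16:18477772-18477774, plus), and their printed stretches end with the true stop. The complete coding models (coding transcripts annotated with both ends) examined for the other members, 1 per gene, had no in-frame TGA.

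All 4 Gpx1 transcript models hold these bases in their exons, but only Gpx1-201 has the codon inside its annotated reading frame. Gpx1-201 (1072 bases) held 56.8% and 42.4% of the gene's TPM. Gpx1-204 (653 bases) held 32.0% and 47.9%, and its annotated frame of 145 codons begins downstream of the TGA. The leading Gpx1 transcript therefore differed between the libraries. For Gpx4 the transcripts that hold the codon had 100% and 98.3% of TPM. These were mainly Gpx4-202 (197 codons, the length of the mitochondrial form), with 51.2% and 64.7%, and Gpx4-207 (157 codons), with 48.8% and 33.7%. For Gpx3, Msrb1 and Txnrd1 the share was 100% in both libraries.

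Catalase and the cytosolic superoxide dismutase were abundant, and the mitochondrial dismutase was lower than both. Cat (chr2:103453849-103485160), which splits hydrogen peroxide, stood at 319 and 398 coding-scaled TPM from 11710 and 6857 counts. Sod1, the cytosolic copper-zinc enzyme, stood at 156 and 198. Sod2, the mitochondrial manganese enzyme, stood at 11.8 and 11.7. The order of these 3 was the same in both libraries. The ratio of Sod1 to Sod2 was 13.2 and 16.8 by TPM. By counts it was 1.65 and 2.25, since the single Sod2 model in the deposited tables is 3824 bases long against 646 for Sod1. Release M21 gives Sod2 5861 bases, so its per-length level depends on the annotation. Sod3, the extracellular form, had 0 counts.

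In the thioredoxin system the reductase annotated as mitochondrial stood far above the other members by TPM. Txnrd2 (chr16:18426384-18479073) had 541 and 545 coding-scaled TPM from 6032 and 3829 counts, and Txnrd1, the cytosolic reductase, had 20.3 and 17.7 from 996 and 448 counts. Txnip, a thioredoxin-binding inhibitor, stood at 127 and 116. Txn1, the cytosolic thioredoxin, stood at 40.1 and 72.5 and was higher in replicate 2. Txn2, the mitochondrial thioredoxin, stood at 17.8 and 30.9 and was also higher there. The ratio of Txn1 to Txn2 was 2.26 and 2.35 by TPM, 2.36 and 1.59 by counts, and 4.38 and 2.35 over complete coding models, so the libraries matched in it by TPM only. The ratio of Txnrd1 to Txnrd2 was 0.0375 and 0.0325 by TPM but 0.165 and 0.117 by counts, so that the excess of Txnrd2 was smaller before division by length.

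The high Txnrd2 level rested on short, incomplete transcript models. Txnrd2-208 (592 bases) led in both libraries with 59.8% and 55.0% of TPM, from 1977 and 1023 counts. GENCODE gives it an exon of its own at the start (chr16:18428925-18429029), marks it as an incomplete coding model, and it does not hold the selenocysteine codon. Txnrd2-203 (1905 bases), the transcript whose annotated frame of 527 codons holds the selenocysteine codon, had 9.99% and 28.5%. By counts Txnrd2-203 exceeded Txnrd2-208 in replicate 2, with 2106 against 1023, but not in replicate 1, with 1408 against 1977. Txnrd2-212 and Txnrd2-213 hold the same bases but are annotated as ending there. Summed over complete coding models only, Txnrd2 stood at 94.99 and 197.5, which moved it from rank 3 to rank 8 of the 37 genes by mean level. On that sum the ratio of Txnrd1 to Txnrd2 was 0.213 and 0.0896.

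Among the genes that make and recycle glutathione, Gclm was the highest and Gss the lowest in both libraries. Gclm (chr3:122245557-122270732), the modifier subunit of the enzyme that joins glutamate and cysteine, stood at 331 and 656 coding-scaled TPM. Gclc, its catalytic subunit, stood at 90.7 and 115, and Gsr, which reduces oxidised glutathione with NADPH, at 119 and 98.8. The ratio of Gclc to Gclm was 0.274 and 0.175 by TPM, and 0.302 and 0.372 by counts. The modifier subunit thus exceeded the catalytic subunit on either scale. Gss, which adds glycine in the last step, had 151 and 31 counts, or 11.3 and 3.77 coding-scaled TPM. Summed over complete coding models only, Gss stood at 1.51 and 1.74, so its lower value in replicate 2 did not hold on that sum.

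Gclm was higher in replicate 2 by TPM but not by counts. Gclm had 14785 and 7837 counts, which after scaling for library size is a log2 ratio of -0.02 (95% counting interval -0.06 to 0.02). By coding-scaled TPM the log2 ratio was 0.99. The effective length used for the gene went from 2942 to 1541 bases, as Gclm-201 (4841 bases) had 59.3% of TPM in replicate 1 and 26.4% in replicate 2. Gclm-205, a retained-intron model of 467 bases, had 20.5% and 46.4%. Summed over complete coding models, Gclm stood at 196 and 173, so on that sum it was lower, not higher, in replicate 2.

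Glrx, the cytosolic glutaredoxin, which removes glutathione from protein thiols, was the highest of the 3 glutaredoxins among the 37 genes, with 72.9 and 49.3 coding-scaled TPM. Glrx3, which takes part in iron handling, stood at 27.2 and 30.7. Glrx2 stood at 4.53 and 9.57 from only 76 and 95 counts, and its transcripts were split so far that none held over 50% in either library. Glrx2-202 (123 codons) led with 43.9% in replicate 1, where the longer form Glrx2-210 (156 codons) had 19.6%. In replicate 2 Glrx2-213, a retained-intron model, led with 25.8%, and Glrx2-210 had 0 counts.

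The glutathione transferases attach glutathione to electrophiles, and the membrane-bound Mgst enzymes were the highest of the 6 by TPM. Mgst3 stood at 139 and 160 coding-scaled TPM, Mgst1 at 105 and 74.3, and Gstm1 at 66.0 and 52.8. By counts Gstm1 (1103 and 455) exceeded Mgst1 (960 and 381) in both libraries. The TPM of Mgst1 rested mainly on Mgst1-207, a model with a frame of only 51 codons. Gsto1 had 32.3 and 16.1 from 486 and 128 counts. Gstm5 had 23.7 and 8.56 from 199 and 48 counts, and Gstp1 had 13.9 and 8.41. Of the 6, only Mgst3 was higher in replicate 2. Gstm1 and Gstm5 belong to a family of closely similar genes. The posterior standard deviation of all 37 genes stayed under the limit for marking shared reads (3 times the square root of the count). That limit is wide, and staying under it does not show that no reads were shared. For Gstp1 the posterior standard deviation was 10.7 on 120 counts in replicate 1 and 4.39 on 39.3 in replicate 2. The level of Gstp1 is therefore uncertain.

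The glyoxalases destroy methylglyoxal, a by-product of glycolysis, with glutathione as cofactor. Hagh, which does the second step, stood at 245 and 236 coding-scaled TPM, and Glo1, which does the first, at 122 and 139. By counts the order was the reverse in both libraries, with 2613 and 1496 for Hagh and 2901 and 1643 for Glo1. Msrb1, a selenoprotein that repairs oxidised methionine, stood at 103 and 45.0 from 1178 and 300 counts. Nqo1, a quinone reductase and a standard readout of the regulator NRF2, stood at 11.4 and 18.0 from 235 and 195 counts.

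The match between the libraries was measured as the log2 ratio of replicate 2 over replicate 1 from library-scaled counts, restricted to genes that averaged 100 counts or more. This left 30 of the 37 genes. With 1 library on each side there is no test and no p-value, and the intervals given cover counting error only. The median log2 ratio of the 30 genes was -0.11, against -0.03 for all 7658 coding genes of that depth. Of the 30, 22 (73.3%) lay within 0.5 of 0, against 70.4% of all. At least 2-fold apart were 4 of the 30, 1 higher and 3 lower in replicate 2. Of all coding genes 8.44% were that far apart, 3.04% higher and 5.39% lower. The interval excluded 0 for 22 of the 30 genes (8 above, 14 below), against 69.3% of all genes.

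The gene higher in replicate 2 was Txn2, with 222 and 318 counts and a log2 ratio of 1.41 (interval 1.16 to 1.67). By coding-scaled TPM its log2 ratio was 0.80 and short of 2-fold, as its effective length went from 821 to 1329 bases. Over complete coding models Txn2 stood at 9.15 and 30.9, so on that sum it was more than 2-fold higher in replicate 2. The genes lower in replicate 2 were Gsto1, with a log2 ratio of -1.03 (interval -1.32 to -0.75), Msrb1, with -1.08 (-1.27 to -0.90), and Gstm5, with -1.16 (-1.64 to -0.70). Over complete coding models Gstm5 stood at 8.35 and 6.96, so its difference was under 2-fold on that sum. These 3 intervals include a 2-fold difference, whereas that of Txn2 by counts lies wholly beyond it. Beside them, by the same log2 ratio, 10 of 12 monocyte and macrophage markers, 10 of 14 neutrophil and granulocyte markers, 5 of 6 markers of mast cells, basophils and eosinophils and 8 of 12 erythroid markers were lower in replicate 2, against 52.4% of all coding genes of that depth. Their part in the result was not tested. By counts the 5 highest genes were each less than 2-fold apart. Gpx1 had a log2 ratio of -0.33 (-0.35 to -0.31), Prdx2 of -0.15 (-0.18 to -0.12) and Cat of 0.12 (0.08 to 0.16). Txnrd2 had 0.24 (0.18 to 0.30) and Gclm had -0.02 (-0.06 to 0.02). Whether these genes matched more closely than the other members was not tested. Gclm had a log2 ratio of 0.99 by coding-scaled TPM, and Txnrd2 stood at 94.99 and 197.5 over complete coding models. Gpx1, Prdx2 and Cat were less than 2-fold apart on those scales too.

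**Figure D2:**
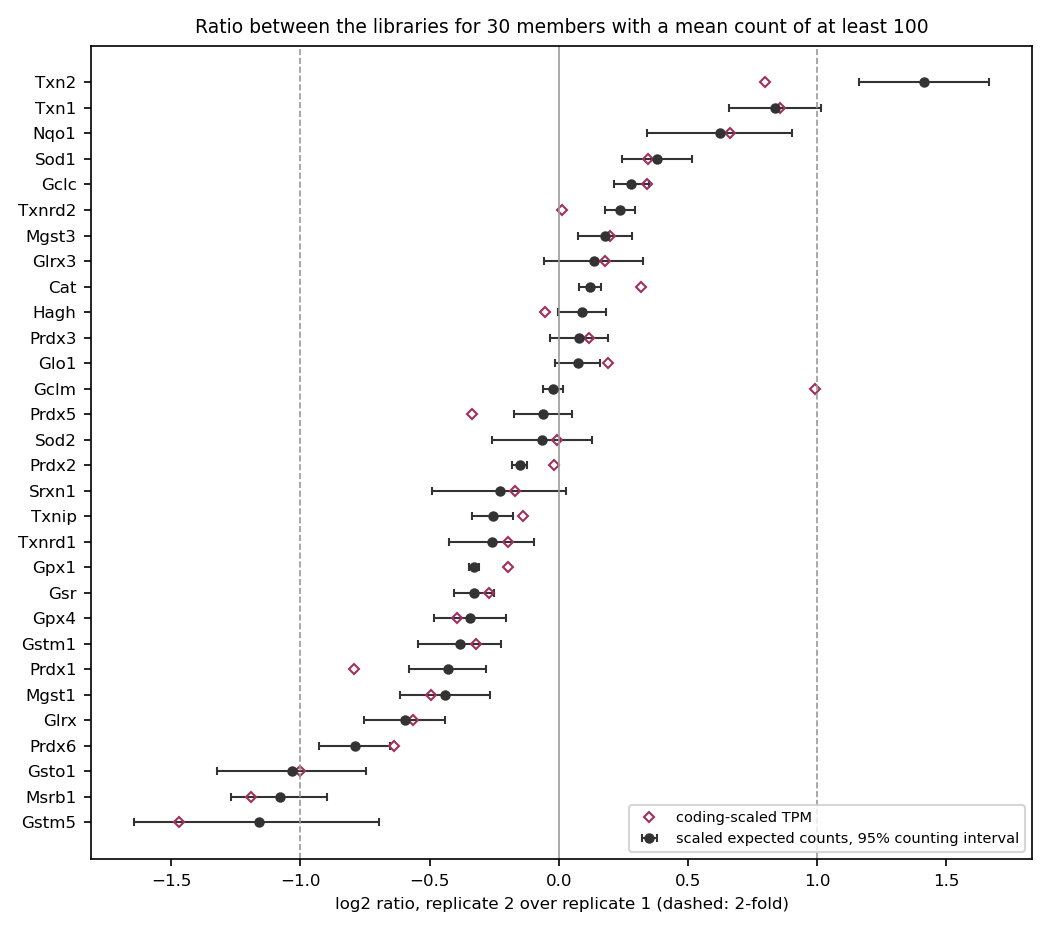
Log2 ratio of replicate 2 over replicate 1 for the 30 genes that averaged 100 counts or more, from scaled expected counts with 95% counting intervals (filled circles) and from coding-scaled TPM (open diamonds), with dashed lines at a 2-fold difference. Txn2 lies beyond the upper line by counts only, Gclm lies near it by TPM only, and Gsto1, Msrb1 and Gstm5 lie at or beyond the lower line on both scales.

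Transcript shares were described for the 23 detected genes that have more than 1 transcript model; 12 of the 37 genes have a single model. A transcript with over 50% of TPM in both libraries was found in 12 of the 23, against 48.0% of all detected coding genes with more than 1 transcript. The leading transcript was the same in both libraries for 14 of the 23, against 59.7% of all. Transcripts annotated as protein-coding held a median of 99.3% and 98.8% of a gene's TPM, against 89.8% and 88.0% over all such genes. That share includes incomplete coding models. Complete coding models alone held a median of 74.4% and 98.4%, against 81.2% and 79.2% over all such genes. On that measure the 23 genes were below all genes in replicate 1 and above them in replicate 2. The transcript types and frames are those of GENCODE M21, while the deposited values were made with M4 models. Of the 151 transcripts of the 37 genes 150 are in M21, and 130 of these have the same length there.

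**Figure D3:**
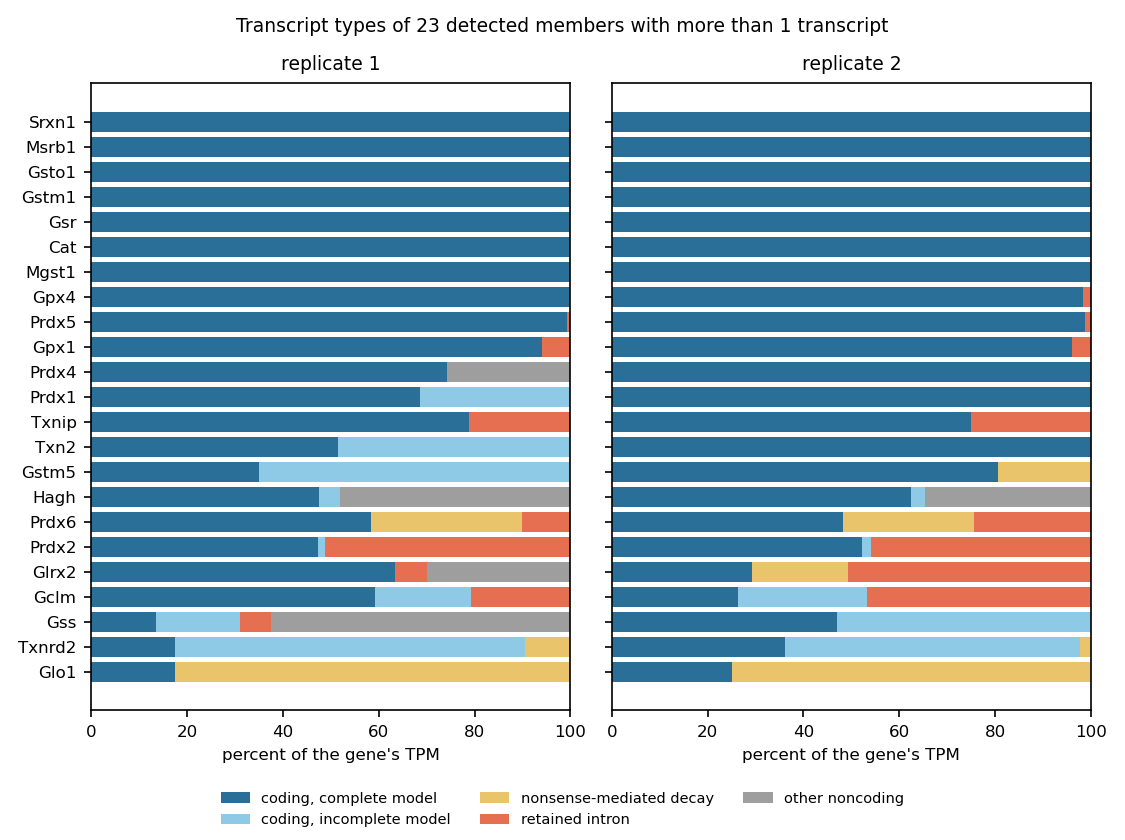
Percent of each gene's TPM held by 5 types of transcript in replicate 1 (left) and replicate 2 (right), for the 23 detected genes with more than 1 transcript. Cat, Gsr and Gpx4 are nearly all complete coding models, whereas Glo1 is mostly of a nonsense-mediated decay type and Txnrd2 mostly of incomplete coding models in both libraries.

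For 3 genes, Txnrd2, Glo1 and Gss, complete coding models held under 50% of TPM in both libraries. The share over all coding genes is not given, so this count only describes the genes named. Glo1-201, which M21 types as a target of nonsense-mediated decay, held 82.4% and 75.0%, and the coding Glo1-202 held 17.6% and 25.0%. Glo1-201 has 1935 bases in the deposited tables and 2024 in M21, so the type given by M21 may not be that of the model counted. Gss was led by the noncoding Gss-209 in replicate 1, with 62.4%, and by the incomplete Gss-208 in replicate 2, with 52.9%, on few counts. The complete model Gss-203 had 36 and 22 counts.

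Prdx2 also had much of its TPM outside coding transcripts, which held 48.8% and 54.2%. Prdx2-205, a retained-intron model of 549 bases, held 40.1% and 34.4%. Prdx2-201 (1500 bases) held 39.4% and 11.4%, and Prdx2-208 (1175 bases) held 0% and 35.3%. Prdx2-201 and Prdx2-208 have the same number of codons, 198. The libraries thus differed in which of them led, not in the encoded length. Hagh was led by the noncoding Hagh-206 in replicate 1, with 48.2% against 34.6% in replicate 2, and by the coding Hagh-202 in replicate 2, with 45.5% against 30.9%.

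**Figure D4:**
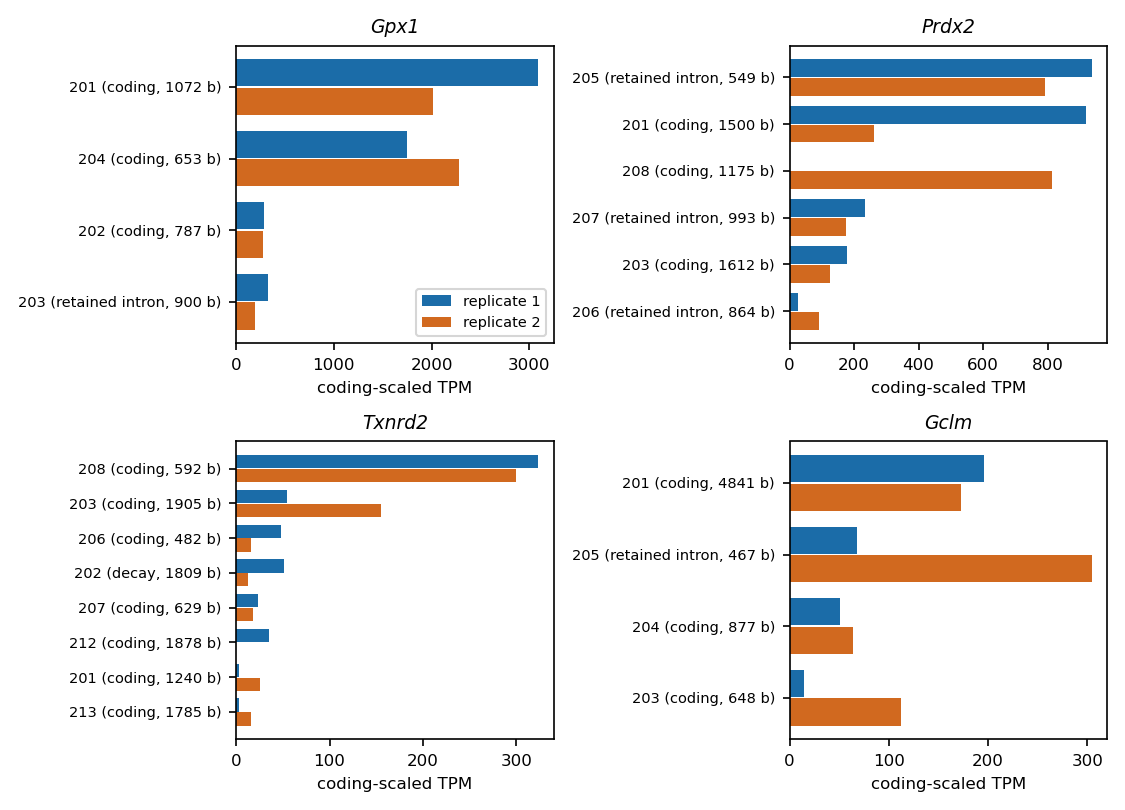
Coding-scaled TPM of single transcripts of Gpx1, Prdx2, Txnrd2 and Gclm in replicate 1 and replicate 2 (bars from 0), for transcripts with at least 3% of the gene's TPM in either library; labels give the transcript number, its type and its length in bases (b). Txnrd2-208 is the longest bar of its gene in both libraries, Prdx2-208 is present only in replicate 2, and Gclm-205 is the longest bar of its gene in replicate 2.

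Other genes were divided among coding forms. Prdx5-204 (166 codons) held 48.0% and 33.6%, and Prdx5-203 (213 codons) held 42.9% and 45.7%. Txnip-202 and Txnip-201 differ by 1 codon and held 43.5% and 35.2% in replicate 1 and 41.9% and 33.1% in replicate 2. Mgst1-207, with a frame of only 51 codons, led with 70.8% and 59.0%, while the 155-codon Mgst1-201 held 7.55% and 12.2%. Txn2-201 (166 codons), the full-length mitochondrial precursor, held 44.3% and 72.8%, and the incomplete Txn2-206 held 48.6% and 0%. Prdx6-202 held 58.4% and 48.2%. Gstm5 was led by the incomplete Gstm5-206 in replicate 1, with 65.0%, and by Gstm5-204 in replicate 2, with 50.1%. Gsr rested on Gsr-201 and Txnrd1 on its single model, each with 100% in both libraries.

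**Figure D5:**
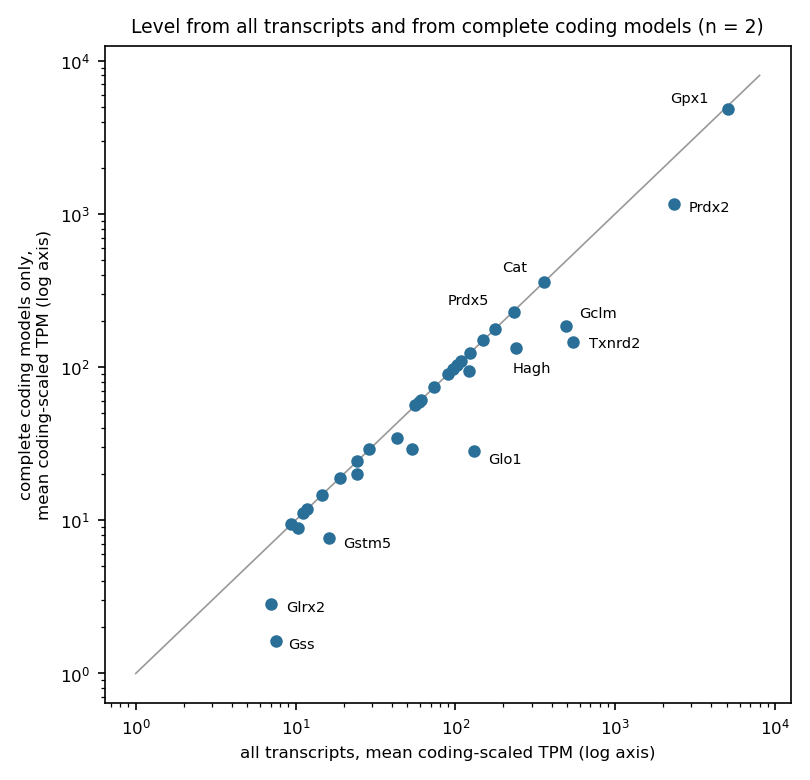
Mean coding-scaled TPM over 2 libraries from all transcripts (horizontal, log axis) against that from complete coding models alone (vertical, log axis) for the 34 detected genes, with the line of equal values. Txnrd2, Glo1, Gclm, Prdx2, Gss and Glrx2 lie below the line, whereas Gpx1 and Cat lie on or near it.

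Exons of Prdx2, Prdx5, Txnrd2, Txnip, Gclm, Gss, Gstm5 and Glo1 share bases with exons of another gene in M21. The sources used here do not state whether counting used strand, so such reads cannot be told apart. Prdx2 shares 177 bases with Rnaseh2a and 173 with Junb, genes with 355 and 427 counts in replicate 1 against 30894 for Prdx2. Gstm5 shares 178 bases with the antisense gene 4933431E20Rik, which had 197 and 115 counts against 199 and 48 for Gstm5, and Gss shares 395 bases with Acss2, which had 655 and 439 counts. The levels of Gstm5 and Gss are therefore uncertain. Prdx5 shares 409 bases with Trmt112 (443 and 121 counts), and Txnip shares 606 with Gm15441 (0 and 28 counts). On the same strand, Gclm shares 244 bases with the pseudogene Gm6061 (610 and 298 counts). Glo1 shares 90 there with 1700097N02Rik (20 and 0 counts). How far these overlaps bear on the levels was not tested.

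The genes that feed or control these enzymes are given as counts detected, to be read against the 43.9% of all nuclear protein-coding genes. Of 17 genes listed for NADPH supply 16 were detected, and none of the 16 with enough counts was 2-fold apart between the libraries. The list takes in whole pathways, so not every gene on it forms NADPH itself. The highest were Nadk2, the mitochondrial NAD kinase (518 and 766), Taldo1 (376 and 491) and Tkt (142 and 123), the latter pair of the pentose phosphate pathway. The dehydrogenases of that pathway were lower, G6pdx at 61.6 and 48.7 and Pgd at 34.0 and 30.9. Of 12 genes of glutathione breakdown and cysteine supply 4 were detected (33.3%), near the share over all genes. They were led by the glutamine transporter Slc1a5 (670 and 696), Chac2, which cleaves glutathione (500 and 400), and Ggt5 (5.06 and 6.82). The first pair stood in the range of the highest members.

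NRF2, encoded by Nfe2l2, binds antioxidant response elements with small MAF partners and is kept low by KEAP1 and CUL3. Of 11 genes of this regulation 9 were detected. Nfe2, the erythroid relative of NRF2, stood at 706 and 660, Cul3 at 182 and 213, and Mafk at 155 and 229. Nfe2l2 itself stood at 36.5 and 32.1, and Keap1 at 9.51 and 7.25. Nfe2 was thus well above Nfe2l2 in both libraries. Of 15 other NRF2 target genes 12 were detected, led by the ferritin genes Fth1 (1049 and 1147) and Ftl1 (1046 and 742) and by Blvrb (284 and 476), a biliverdin reductase.

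Of 10 genes of selenoprotein synthesis 9 were detected. Rpl30, a ribosomal protein that also binds selenoprotein mRNAs, stood at 224 and 589, Sars, which charges the selenocysteine tRNA with serine, at 148 and 94.1, and Sephs2, which makes selenophosphate, at 43.5 and 21.8. Of the 8 with enough counts, Rpl30 was at least 2-fold higher in replicate 2 and Sephs2 and Sepsecs at least 2-fold lower. Rpl30 has near-identical copies in the genome, so its counts are uncertain. Of 15 other selenoproteins 11 were detected, with Selenof (224 and 225), Selenok (108 and 156) and Selenot (115 and 125) the highest. Of 32 further genes of the same enzyme families 16 were detected, also near the share over all genes, led by the mitochondrial glutaredoxin Glrx5 (437 and 640), Sesn1 (119 and 142) and Park7 (67.4 and 73.7). Glrx5, which serves iron-sulfur cluster assembly, was above each of the 3 glutaredoxins among the 37 genes.

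Promoter sequence was read from RefSeq (GRCm38.p6) as 300 bases per start, 250 before and 50 after it. The tables held 33 of the 37 genes, without Gclc, Gsr, Prdx6 and Sod3. The core of the antioxidant response element, TGACNNNGC, was searched on both strands. It was found in 8 of the 33 genes (24.2%), against 14.0% of all 27025 genes. Genes with several starts have more windows. By promoter it was in 8 of 45, against 12.4% of all 32851 promoters. The matches are shown because NRF2 is the known regulator of many of these enzymes. Each is given 5′ to 3′ on the strand of the match with 10 bases on either side, and the capitals mark the fixed bases.
Gclm: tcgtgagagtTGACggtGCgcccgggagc
Gstm5: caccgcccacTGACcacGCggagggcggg
Hagh: gtctaggtacTGACgcgGCgcggccgggt
Mgst1: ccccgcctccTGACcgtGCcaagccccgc
Prdx1: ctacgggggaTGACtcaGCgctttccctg
Sod1: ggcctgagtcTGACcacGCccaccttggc
Srxn1: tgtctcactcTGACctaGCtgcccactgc
Txnrd1: cgtgtcagaaTGACaaaGCaaaaatccag

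The Prdx1 match lies at chr4:116685466-116685474 and that of Gclm at chr3:122245423-122245431, both on the minus strand, at positions -133 and -134 relative to the start of genes that run on the plus strand. The Txnrd1 match lies at chr10:82859114-82859122 (minus strand) and the Sod1 match at chr16:90220706-90220714 (minus strand). The matches of Hagh (chr17:24850687-24850695, plus strand) and Srxn1 (chr2:152105552-152105560, minus strand) lie after the start. The levels of these 8 genes ran from 8.56 (Gstm5) to 656 (Gclm) in replicate 2, within the range of the other members. Gpx1, Prdx2, Cat and Txnrd2 had no such letters in the windows searched. The core that NF-E2 and AP-1 sites share, TGAGTCA, was in 5 of the 33 genes (15.2%), Glrx, Gstm5, Gstp1, Prdx1 and Srxn1, against 5.95% of all genes. In Prdx1 the printed match also contains that core on its reverse strand. The GATA site AGATAA was in 0 of the 33 genes, against 12.7% of all. A match is a description of letters, not a site of binding. The member promoters had a median GC content of 60.0% and 16 CpG, against 52.7% and 7 for all promoters.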

How the data were processed

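Total RNA-seq of mouse erythroblasts was measured in 2 libraries, replicates 1 and 2 of 1 group, with ScriptSeq libraries from 100 ng of input, per the labels. The labels name assembly mm10, and the deposited text records give annotation release M4 of GENCODE. Which aligner and quantifier were run is not given in the sources used here, nor is the strand setting. The authors deposited, per the file headers, expected counts (estimates that need not be whole), TPM, posterior means of both, and each transcript's percent of its gene's TPM.

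Genes were matched by Ensembl identifier to GENCODE M21 for symbols, transcript types and coordinates on GRCm38. TPM was rescaled so that 21461 nuclear protein-coding genes sum to 1000000 per library. The deposited expected counts were rounded, and libraries were scaled by TMM (edgeR 4.0.16, R 4.3.3), with DESeq2 1.42.0 size factors as an alternative; neither was used for a test. Ratios of replicate 2 over replicate 1 carry exact Clopper-Pearson 95% intervals, which cover counting error only, and were used at a mean count of at least 100. These scripts were tested on simulated data. A complete coding model is a protein-coding M21 transcript without a missing start or end; sums over these models were added after the data were seen. Python 3.11.15 was used for the rest.

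The 37 genes and all lists were chosen with earlier results of these data known. Given per library by rule were the 3 highest genes of each role, those not detected, those 2-fold apart and those in the family ratios; the other members are also given. Of each pathway list the 3 highest genes are named. Nfe2l2, Keap1, Sepsecs, G6pdx and Pgd were added after their values were seen. Alternatives changed the TPM scale, the estimate, the detection limit, the scaling, the count filter and the library left out. Signal tracks of the series were not analysed here.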

Additional observations from a re-analysis of the deposited data

How the results depend on the processing

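No paired analysis was possible because there is 1 group. The number of genes detected ranged from 27 on deposited TPM to 35. On deposited TPM the median level was 5.42 and the share of TPM 0.0997%; with globins left out of the coding sum the share was 1.71%. The median log2 ratio was -0.27 with library size only and -0.80 by TPM, which moved the median of all coding genes to -0.68. At least 2-fold apart were 10 genes by TPM (0 higher, 10 lower), 7 without a count filter and 0 where a mean of 1000 counts was required. For the counts of genes in this section the share over all coding genes is not given. They therefore describe the settings and are not read as a result about the members. The median share in protein-coding transcripts was 94.7% by posterior mean.

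By expected counts the ratios were 26.0 for Prdx2 to Prdx1, 1.95 for Sod1 to Sod2, 1.98 for Txn1 to Txn2, 0.141 for Txnrd1 to Txnrd2 and 0.337 for Gclc to Gclm. By posterior mean TPM Txn1 to Txn2 was 2.04. Over complete coding transcripts, an alternative added after the data were seen, the median level was 42.5, the median percentile 91.1 and the share 1.06%. The ratios were then 33.8 for Prdx2 to Prdx1, 3.36 for Txn1 to Txn2, 0.151 for Txnrd1 to Txnrd2 and 0.564 for Gclc to Gclm. Which family member was higher did not change in these settings, and the cause of the shifts was not tested beyond the lengths given above.

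Leaving out either library gave 34 to 35 genes detected, a median level of 49.3 to 66.0, a median percentile of 86.0 to 90.0, a share of 1.07% to 1.12%, and 15 to 17 genes with a leading transcript over 50%. The median share in protein-coding transcripts was then 98.8% to 99.3%. The ratios were 42.6 to 73.0 for Prdx2 to Prdx1, 13.2 to 16.8 for Sod1 to Sod2, 38.8 to 44.5 for Gpx1 to Gpx4, 2.26 to 2.35 for Txn1 to Txn2, 0.0325 to 0.0375 for Txnrd1 to Txnrd2 and 0.175 to 0.274 for Gclc to Gclm. A mean of 100 counts was not reached by 7 genes, Prdx4, Gpx3, Gpx7, Sod3, Gss, Glrx2 and Gstp1, for which no ratio between the libraries was read.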
